A study of Homo sapiens with 7 samples.

Results

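The genes described here are 9 that have been used to mark stem-like cells in breast cancer, namely CD44, CD24, PROCR, PROM1, ALDH1A1, ALDH1A3, SOX2, SOX9 and KLF4. The list was fixed by gene symbol, but with earlier results of these data known. All 9 had a probe annotated with that symbol alone, among 18417 genes measured in this way. Breast cancer stem-like cells are the fraction of tumor cells that can start a new tumor and renew themselves. They are usually recognized by a high surface level of CD44 with little CD24, or by the activity of aldehyde dehydrogenases, which convert retinaldehyde to retinoic acid. Transcription factors of the SOX and KLF families are linked to the ability of such cells to renew and to switch state, and mesenchymal breast cancer lines are known for a CD44-high, CD24-low surface.

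Transcript levels were measured on 7 GeneChip Human Gene 1.0 ST arrays of SUM159, a mesenchymal triple-negative breast cancer cell line. The cells carried a lentiviral vector that makes a hairpin RNA only when doxycycline is given, and all groups, the control included, were grown in 2D for 15 days with doxycycline. SHP2 sh1 (2 arrays, called SHP2 miR1 in other labels) and SHP2 sh2 (3 arrays, SHP2 miR2) were directed against PTPN11, which encodes the tyrosine phosphatase SHP2, and Ctrl shRNA (2 arrays, CTRL miR) carried a control hairpin. The question was how the loss of SHP2 changed the transcripts of these cells. Separate cultures for the arrays of a group are not stated in the sources used here. The p-values therefore cover only the variation among these arrays, which may be technical. RNA was isolated with a column kit according to the sample labels and with TRIzol according to the study's methods.

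PTPN11, the target, measured 7.90 and 6.93 in SHP2 sh1 cells, 7.96, 7.20 and 7.89 in SHP2 sh2 cells and 9.53 and 9.18 in Ctrl shRNA cells, on the log2 scale of the RMA (robust multi-array average) values used throughout. All 5 SHP2 arrays were below both Ctrl shRNA arrays. The log2 fold change for the mean of both hairpins was -1.80 (SE 0.34, 95% interval -2.62 to -0.98). In limma, a linear model that shares the estimate of spread among genes, its unadjusted p was 0.00141 and its adjusted p 0.758. That adjusted p was the lowest of all genes in this comparison, and genes with larger unadjusted p shared it. Replicate 2 of SHP2 sh1 and replicate 2 of SHP2 sh2 stood apart. Their values correlated with those of the other 5 arrays across genes at r between 0.827 and 0.953, whereas the other 5 arrays correlated with each other at 0.973 to 0.991. On these 2 arrays the brightest 25% of genes lay at a median of 0.44 and 0.83 below the Ctrl shRNA mean, and the dimmest 25% at 0.23 and 0.49 above it. The same 2 arrays held the lowest PTPN11 values, 6.93 and 7.20, against 7.89 to 7.96 on the other SHP2 arrays. Leaving them out, as done below, therefore also removes the arrays with the least PTPN11 transcript. Whether array quality or the depth of the knockdown set them apart was not tested. Of 8 mesenchymal genes, 6 were in the brightest 25% of all genes, as were 2 of 8 measured epithelial genes (9 listed). KRT8 was the brightest epithelial gene, at a mean of 10.69. None of the measured genes of blood (6 of 8), endothelium (6 of 6) or fat (3 of 3) was in that 25%, nor any of 3 hormone receptor and HER2 genes. Fewer cells of a type and less RNA per cell cannot be told apart in bulk RNA.

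For none of the 9 genes was the difference between SHP2 and Ctrl shRNA cells larger than the test allows for the spread between arrays. After Benjamini-Hochberg adjustment over all genes in limma, 0 of 9 passed the threshold of 0.05 in any comparison. Compared with Ctrl shRNA were SHP2 sh1, SHP2 sh2 and both hairpins averaged, and the hairpins were compared with each other. Of all genes, 0% passed in each comparison. Against Ctrl shRNA, the lowest adjusted p of any gene in limma was 0.995 for SHP2 sh1, 0.667 for SHP2 sh2 and 0.758 for both averaged. At an unadjusted p under 0.05 the count was also 0 of 9 in each, whereas 1.09% of all genes reached it for SHP2 sh1, 2.35% for SHP2 sh2, 1.94% for both hairpins averaged and 0.63% between the hairpins. CD24 and ALDH1A1 were higher on all 5 SHP2 arrays than on both Ctrl shRNA arrays, 2 of 9 genes where 8.13% of all genes were, and none of the 9 was lower on all 5, as 7.17% of all genes were. The count of genes higher on all SHP2 arrays was 4 without Ctrl shRNA replicate 1, where SOX9 and KLF4 joined, and 4 without SHP2 sh1 replicate 1, where ALDH1A3 and SOX2 joined. A positive log2 fold change for the mean of both hairpins was found for 7 of the 9, and for 58% of all genes. The 2 arrays that stood apart carried the highest value of 6 of the 9 genes.

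**Figure D1:**
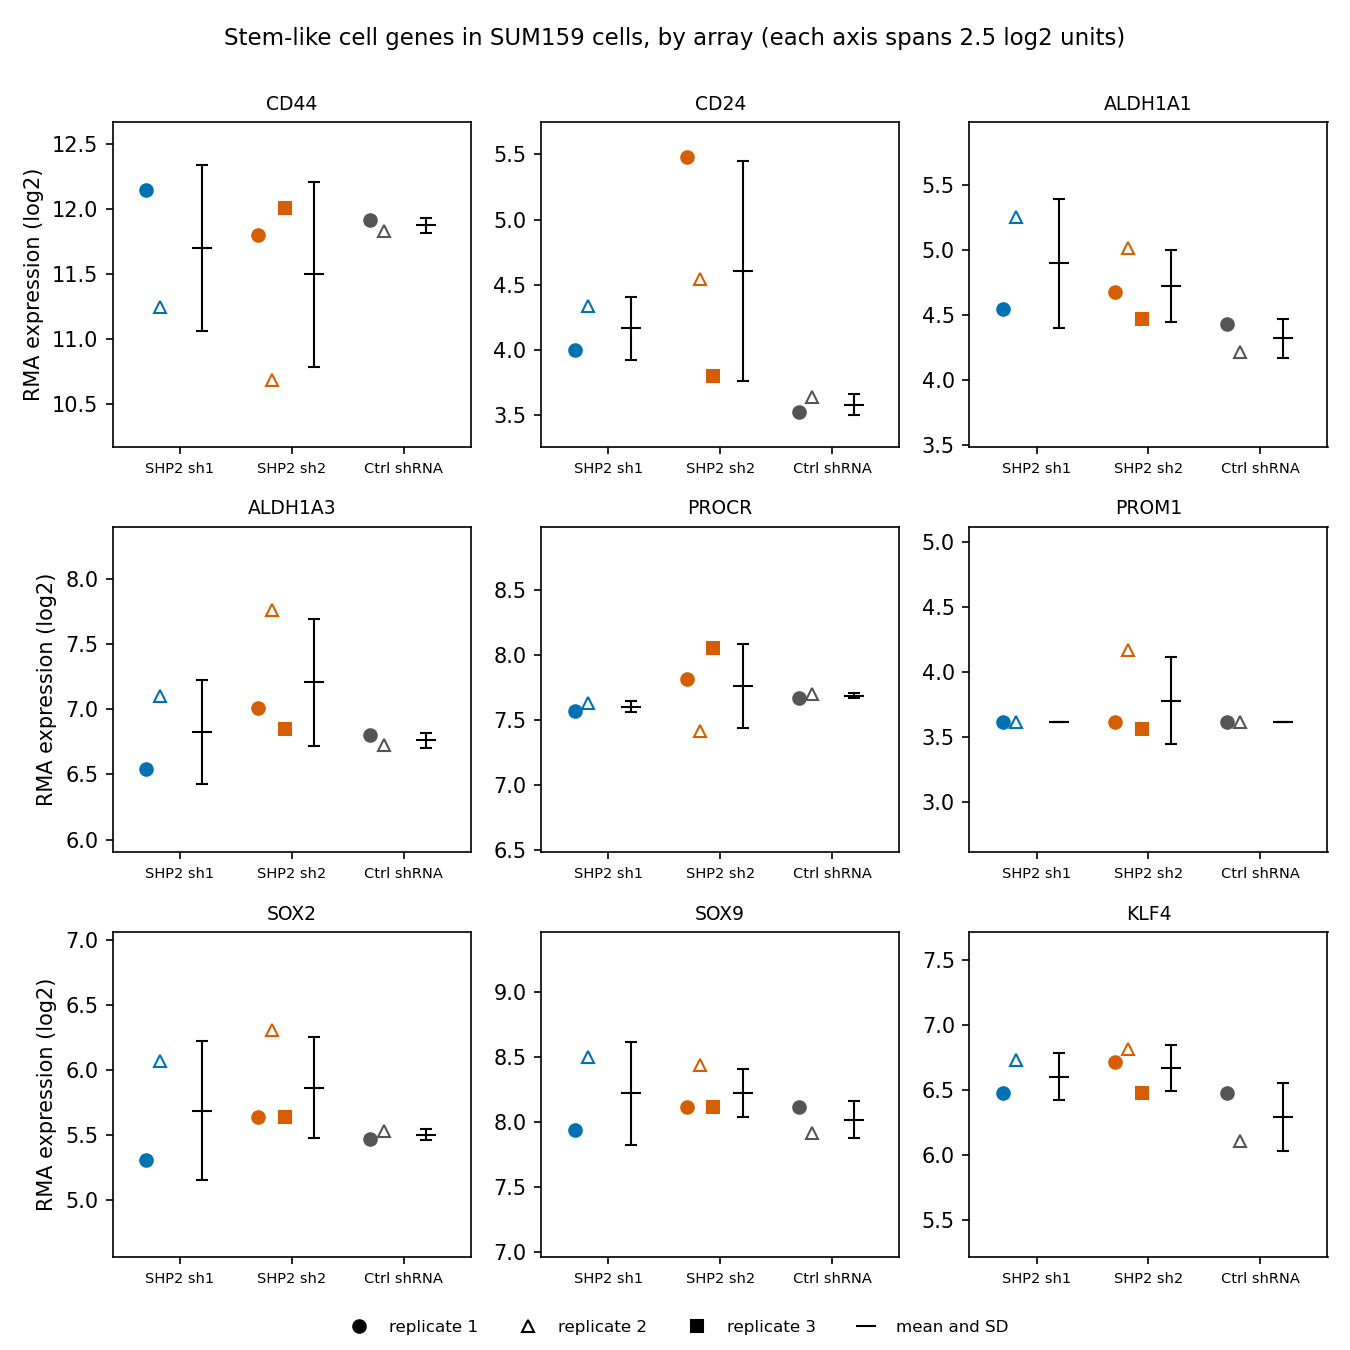
RMA expression (log2) of the 9 genes on the 7 arrays, with SHP2 sh1 (2 arrays), SHP2 sh2 (3 arrays) and Ctrl shRNA (2 arrays) from left to right. Symbols are single arrays, the bar is the mean with its SD, and only CD24 and ALDH1A1 have every SHP2 array above both Ctrl shRNA arrays.

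CD44, the surface receptor for hyaluronan (chromosome 11, 35139171 to 35232402 in GRCh38.p14), measured 12.15 and 11.25 in SHP2 sh1 cells, 11.80, 10.69 and 12.01 in SHP2 sh2 cells and 11.91 and 11.83 in Ctrl shRNA cells. The lowest values were those of the 2 arrays that stood apart. SHP2 sh2 replicate 1 was slightly below both Ctrl shRNA arrays, and the groups overlapped. The log2 fold change was -0.18 with SHP2 sh1 and -0.37 with SHP2 sh2, and -0.28 for the mean of both (SE 0.42, 95% interval -1.28 to 0.73, adjusted p 0.772). Leaving both of those arrays out, which was decided with the values in view, the mean difference was 0.15, so its direction turned. That setting leaves SHP2 sh1 with 1 array, which is assumed to vary like the others. CD44 belonged to the brightest 25% of genes, which as a whole was lower on those arrays, and the part of this shift in the CD44 values was not tested.

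CD24, a small glycosylated surface protein that is scarce on stem-like breast cancer cells (chromosome 6, 106969831 to 106976855), measured 3.99 and 4.33 in SHP2 sh1 cells, 5.48, 4.54 and 3.80 in SHP2 sh2 cells and 3.52 and 3.63 in Ctrl shRNA cells. All 5 SHP2 arrays were above both Ctrl shRNA arrays, by 0.16 at the closest, and SHP2 sh2 replicate 1, which did not stand apart, was the highest. The log2 fold change was 1.03 with SHP2 sh2 (SE 0.46, 95% interval -0.08 to 2.13, adjusted p 0.667, unadjusted 0.064), the widest of the 9 genes in that comparison, and 0.59 with SHP2 sh1 (SE 0.51, adjusted p 0.995). Without SHP2 sh2 replicate 1 it was 0.59 with SHP2 sh2. Without both arrays that stood apart the mean of both hairpins was 0.74, against 0.81 with all arrays. In a fit with weighted arrays, whose weights stopped before convergence, SHP2 sh2 replicate 1 received a weight of only 2.529e-06. CD24 was then 0.29 with SHP2 sh2 and 0.44 for the mean of both hairpins. The gene lay in the dimmest 25% of genes, and CD24 has near-identical pseudogene copies whose signal these values cannot separate. The mean of 8 measured epithelial genes, a class to which CD24 is often counted, was 6.55 and 6.92 in SHP2 sh1 cells, 6.72, 6.92 and 6.82 in SHP2 sh2 cells and 6.64 and 6.43 in Ctrl shRNA cells, with overlap between the groups. The part of these genes in the CD24 values was not tested.

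PROCR, the endothelial protein C receptor, which marks progenitor-like mammary cells (chromosome 20, 35171096 to 35216259), measured 7.57 and 7.63 in SHP2 sh1 cells, 7.81, 7.41 and 8.05 in SHP2 sh2 cells and 7.67 and 7.70 in Ctrl shRNA cells. SHP2 sh2 cells held both the highest and the lowest array. The difference was -0.01 for the mean of both hairpins (SE 0.21, 95% interval -0.52 to 0.51, adjusted p 0.988), with -0.09 for SHP2 sh1 and 0.07 for SHP2 sh2. PROM1, which encodes the membrane protein CD133 (chromosome 4, 15968228 to 16084023), was at 3.61 on both SHP2 sh1 arrays, at 3.61, 4.16 and 3.56 in SHP2 sh2 cells and at 3.61 on both Ctrl shRNA arrays. The value was the same to 6 decimals on 5 arrays, as for 136 genes (0.738%), and the gene lay in the dimmest 25% of genes. Only SHP2 sh2 replicate 2, which stood apart, was higher, and the log2 fold change was 0.17 with SHP2 sh2 (SE 0.24, adjusted p 0.697) and -0.03 without that array. Repeated values were not particular to this gene, since 6370 genes (34.6%) had the same value on 2 or more arrays, 4 of the 9 among them.

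ALDH1A1, the cytosolic retinaldehyde dehydrogenase (chromosome 9, 72900671 to 72953053), measured 4.55 and 5.25 in SHP2 sh1 cells, 4.68, 5.01 and 4.46 in SHP2 sh2 cells and 4.43 and 4.21 in Ctrl shRNA cells. Each SHP2 array was above both Ctrl shRNA arrays, but the closest pair was only 0.04 apart, and both arrays that stood apart were the highest. The log2 fold change was 0.58 with SHP2 sh1 (SE 0.31, adjusted p 0.995), 0.40 with SHP2 sh2 (SE 0.28, adjusted p 0.667) and 0.49 for the mean of both (95% interval -0.14 to 1.11, adjusted p 0.758). It was 0.24 for the mean without the 2 arrays that stood apart.

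ALDH1A3, the isoform often behind aldehyde dehydrogenase activity in breast cancer cells (chromosome 15, 100879831 to 100916626), had 2 probes. The one with the wider spread, which was annotated with a single mRNA record, measured 6.54 and 7.11 in SHP2 sh1 cells, 7.01, 7.76 and 6.85 in SHP2 sh2 cells and 6.80 and 6.72 in Ctrl shRNA cells. SHP2 sh2 cells were above both Ctrl shRNA arrays throughout, whereas SHP2 sh1 cells were on either side of them. The log2 fold change was 0.06 with SHP2 sh1 and 0.45 with SHP2 sh2 (SE 0.33, 95% interval -0.34 to 1.23, adjusted p 0.667), and for the mean of both it was 0.25, but -0.03 without the 2 arrays that stood apart. The other probe, annotated with the RefSeq transcript and looked at after the values were seen, measured 6.10 and 6.26 in SHP2 sh1 cells, 6.10, 6.48 and 6.25 in SHP2 sh2 cells and 5.95 and 6.03 in Ctrl shRNA cells. On that probe all 5 SHP2 arrays were above both Ctrl shRNA arrays, by 0.24 for the mean of both hairpins, so that 3 of the 9 genes rather than 2 were without overlap.

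Promoter windows were read from RefSeq (GRCh38.p14) as the 250 bases before each annotated start, which gave 13 windows for 8 of the 9 genes (SOX9 had none). They were searched on both strands for 13 motifs, all chosen after the values were seen, of which 4 are marked in the sequences shown here and with the retinoid genes. The windows of both aldehyde dehydrogenase genes are given in full, since these enzymes define one kind of stem-like cell, together with 46 bases of the 2 CD24 windows (of 3) that held a SOX motif, since CD24 and ALDH1A1 were the genes without overlap. Capitals mark the SOX motif ACAAAG where it is present, and in the aldehyde dehydrogenase windows also the KLF motif CACCC and CCAAT, on either strand.
ALDH1A1 (chr9:72953054-72953303, minus strand): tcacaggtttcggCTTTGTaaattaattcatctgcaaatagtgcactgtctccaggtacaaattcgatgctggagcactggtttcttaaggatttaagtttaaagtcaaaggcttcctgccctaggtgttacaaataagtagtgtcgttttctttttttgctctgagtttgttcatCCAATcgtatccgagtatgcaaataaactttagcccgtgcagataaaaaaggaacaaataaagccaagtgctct
ALDH1A3 (chr15:100879581-100879830, plus strand): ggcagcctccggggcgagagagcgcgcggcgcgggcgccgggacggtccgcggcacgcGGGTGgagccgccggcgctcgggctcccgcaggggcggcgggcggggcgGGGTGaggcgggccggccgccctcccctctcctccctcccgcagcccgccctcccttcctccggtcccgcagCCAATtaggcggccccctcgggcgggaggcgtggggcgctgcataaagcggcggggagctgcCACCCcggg
CD24, first window (chr6:106975481-106975526, minus strand): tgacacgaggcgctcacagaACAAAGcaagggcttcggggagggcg
CD24, second window (chr6:106974115-106974160, minus strand): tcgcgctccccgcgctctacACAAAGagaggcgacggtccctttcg
ACAAAG was found in 4 of the 13 windows (ALDH1A1, CD24 and SOX2) and in 13.7% of all 35116 windows, CACCC in 8 and in 54.7%, and CCAAT in 5 and in 32%. The ALDH1A1 window also held the octamer ATTTGCAT, found in 1.63% of all windows, and 4 windows held CACCTG, found in 17.5%. Of the rest, ACAATGG (2.62% of all windows), CCGGAAG (8.52%) and the direct repeats of GNTCA, with N for any base and with 6, 3 or 2 free bases between the copies (0.584%, 0.535% and 0.629% of all windows in that order), were in 0 of the 13. GGGCGTG (7.98%), TGANTCA (6.57%) and TATAAA (10.7%) were in 1 each. A match is a run of letters and not a site shown to be bound.

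SOX2, a pluripotency transcription factor (chromosome 3, 181711925 to 181714436), measured 5.31 and 6.07 in SHP2 sh1 cells, 5.64, 6.31 and 5.64 in SHP2 sh2 cells and 5.47 and 5.53 in Ctrl shRNA cells. Its 2 high values were those of the arrays that stood apart, and the mean log2 fold change of 0.27 (SE 0.29, 95% interval -0.43 to 0.98, adjusted p 0.758) was -0.03 without them. SOX2 lay in the dimmest 25% of genes, whose median was higher on those arrays, and the part of this shift in its values was not tested. SOX9, a regulator of mammary progenitor cells (chromosome 17, 72121020 to 72126416), measured 7.94 and 8.50 in SHP2 sh1 cells, 8.12, 8.44 and 8.12 in SHP2 sh2 cells and 8.12 and 7.92 in Ctrl shRNA cells. Both arrays that stood apart were again the highest, although this gene lay in the brightest 25% of genes, whose median was lower there. The mean log2 fold change was 0.20 (SE 0.22, 95% interval -0.33 to 0.74, adjusted p 0.758), and 0.01 without those arrays. It was 0.10 without Ctrl shRNA replicate 2.

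KLF4, a zinc-finger factor used in reprogramming to pluripotency (chromosome 9, 107484852 to 107489769), measured 6.47 and 6.73 in SHP2 sh1 cells, 6.71, 6.82 and 6.48 in SHP2 sh2 cells and 6.48 and 6.11 in Ctrl shRNA cells. SHP2 sh1 replicate 1 was just under Ctrl shRNA replicate 1, so the groups overlapped, and Ctrl shRNA replicate 2 was the lowest array. The mean log2 fold change was 0.34 (SE 0.20, 95% interval -0.14 to 0.83, adjusted p 0.758), and 0.24 without the 2 arrays that stood apart. It was 0.16 without Ctrl shRNA replicate 2 and 0.53 without Ctrl shRNA replicate 1. Between the hairpins, the 9 genes differed by -0.20 (CD44) to 0.44 (CD24) in SHP2 sh2 relative to SHP2 sh1, each with an adjusted p of 1.00 in limma. The interval for CD24 in that comparison, -0.67 to 1.55, leaves room for a difference in either direction.

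**Figure D2:**
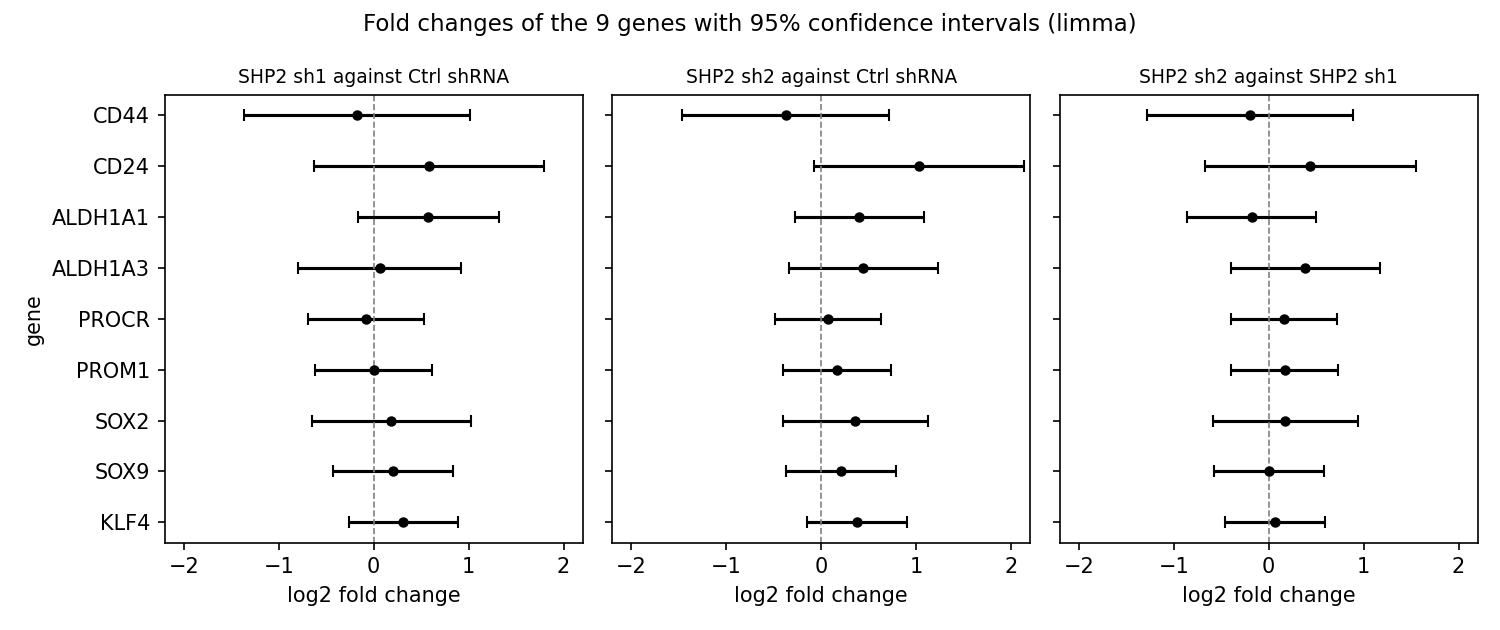
Log2 fold changes (x axis) of the 9 genes (y axis) for SHP2 sh1 against Ctrl shRNA, SHP2 sh2 against Ctrl shRNA and SHP2 sh2 against SHP2 sh1, with 95% confidence intervals from limma. Every interval includes 0, and the closest to leaving it is CD24 with SHP2 sh2, from -0.08 to 2.13.

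Array by array, the 9 genes had a median difference from the Ctrl shRNA mean of 0.00 and 0.44 on the SHP2 sh1 arrays and of 0.14, 0.55 and 0.14 on the SHP2 sh2 arrays, with 0.04 and -0.04 on the Ctrl shRNA arrays. The 2 arrays that stood apart were thus the high ones. Their median over all genes was 0.10 and 0.18. Without them the median log2 fold change of the 9 genes was 0.07, with 6 of 9 above 0, against 0.25 with all arrays. For all genes in that setting the median was 0.0018, with 9317 of 18417 above 0. CD24 and ALDH1A1 then remained the 2 genes with no overlap, where 10.1% of all genes were higher and 8.81% lower on the 3 SHP2 arrays left.

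**Figure D3:**
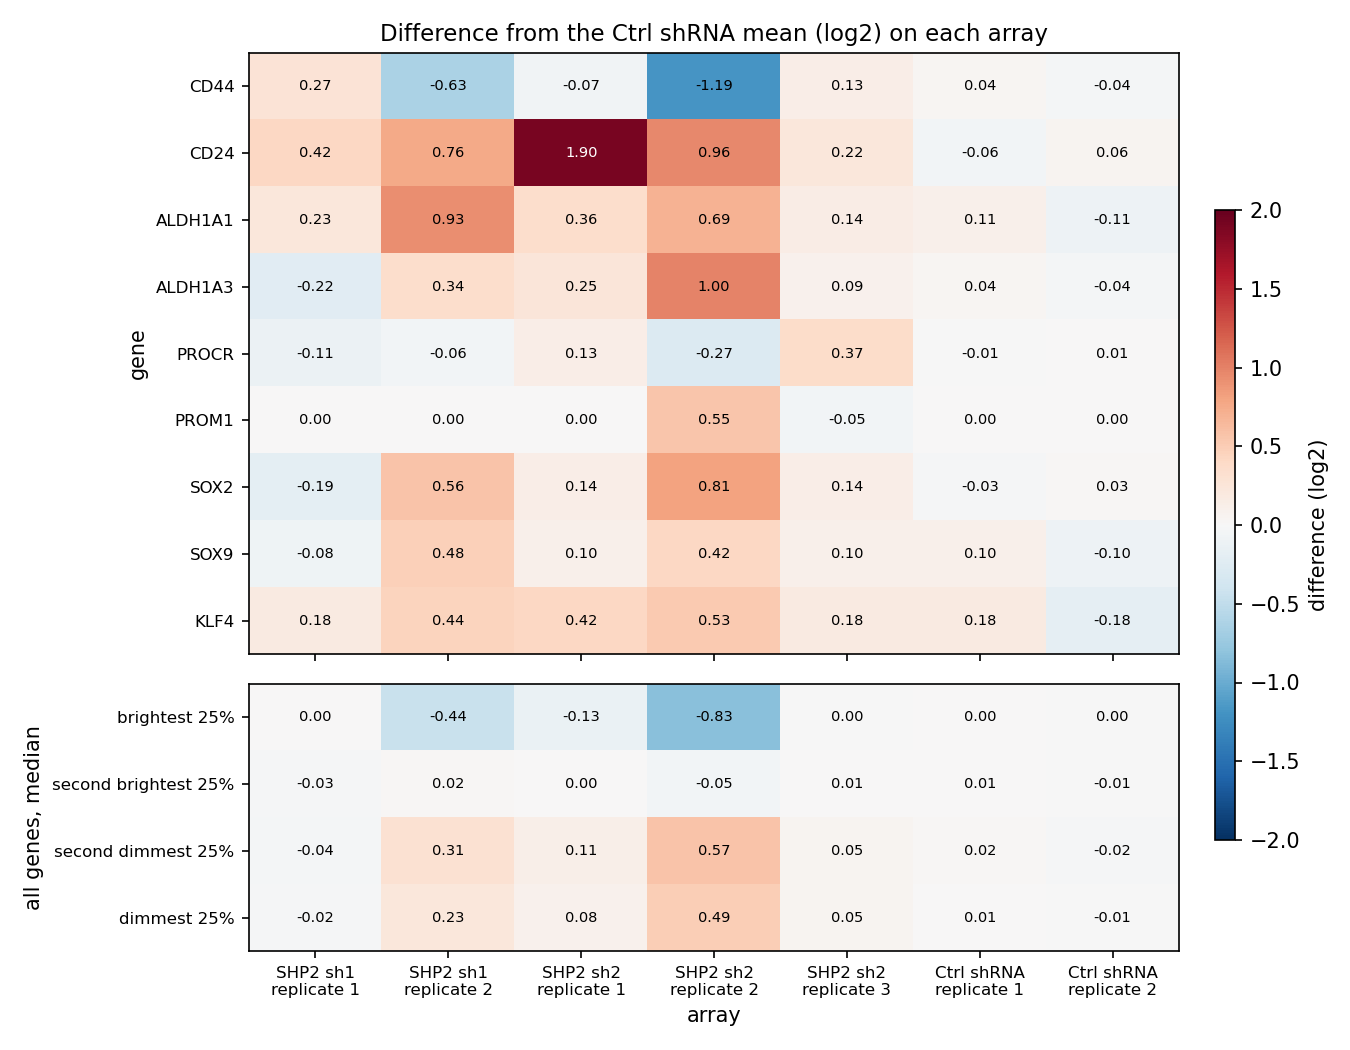
Difference of each array from the Ctrl shRNA mean (log2, color and number) for the 9 genes, above the medians of all genes by mean signal in steps of 25%. Arrays run from SHP2 sh1 and SHP2 sh2 to Ctrl shRNA, and SHP2 sh1 replicate 2 and SHP2 sh2 replicate 2 show the shift by level, with -0.44 and -0.83 in the brightest 25% of genes.

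The 3 members with the widest range were each set beside the genes whose differences on the 5 SHP2 arrays lay nearest. CD44 was followed by RSU1, MAD2L1BP and PEA15 at a root mean square difference of 0.04 to 0.05. ALDH1A3 was followed equally closely by GJD2, ZBP1 and SLC30A3, at 0.04 each. CD24 had no such close companion, its nearest being RIMKLB at 0.26, FDCSP at 0.34 and CACHD1 at 0.38.

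The partners of these genes were examined in 8 further lists, and no gene of any list passed the threshold in any comparison. Beside the 8.13% and 7.17% of all genes without overlap, 2 of 25 measured genes associated with stem cells were higher on all 5 SHP2 arrays and 2 lower, 3 of 19 retinoid genes were higher and 1 lower, 2 of 5 CD24 partners were higher, 1 of 7 genes of the protein C pathway was higher and 1 lower, 3 of 17 other SOX genes were higher, and 3 of 16 other KLF genes were lower. None of 11 CD44 partners or of 3 PROM1-related genes was either. At an unadjusted p under 0.05 in limma for the mean of both hairpins, 1.94% of all genes were counted. The counts were 2 of 25, 2 of 19 and 1 of 5 in the stem cell, retinoid and CD24 lists, 1 of 16 in the KLF list and 0 in the rest. All 17 SOX genes had a positive log2 fold change, with a median of 0.35, where 58% of all genes were positive, with a median of 0.075. Without the 2 arrays that stood apart the SOX median was 0.05 and 14 were positive. Of all genes, 9317 of 18417 were then positive, with a median of 0.0018.

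By name, each list gives its 2 genes of smallest p for the mean of both hairpins, all with an adjusted p of 0.758 in limma. Among stem-cell-associated genes these were DCLK1, a kinase of tuft and stem-like cells, at 1.16 (0.75 without the arrays that stood apart), and MYC at -0.55 (-0.41 without). L1CAM, an adhesion molecule that binds CD24, measured 6.43 and 7.23 in SHP2 sh1 cells, 6.83, 6.90 and 6.997 in SHP2 sh2 cells and 6.14 and 5.98 in Ctrl shRNA cells, a mean difference of 0.81 (SE 0.24, unadjusted p 0.0142, adjusted p 0.758) that was 0.61 without those arrays. Every SHP2 array was above both Ctrl shRNA arrays. FUT7, a fucosyltransferase of selectin ligands, had 0.41, but 0.14 without them. For CD44, the hyaluronan synthase HAS3 had 0.29 (0.14 without) and the splicing factor ESRP2 0.42 (0.10 without), and neither was without overlap. SERPINA5, the protein C inhibitor, had 0.49 (0.53 without) and F2R, the thrombin receptor, -0.91, but -0.32 without the arrays that stood apart. PROM2, the paralog of PROM1, had 0.31 (0.12 without), and CTNNB1 -0.44, turning to 0.10 without them. SOX5 had 0.41 (0.30 without) and SOX14 0.57 (0.19 without), whereas KLF5 had -0.46 (-0.36 without) and KLF12 -0.33 (-0.24 without). The other genes without overlap, named after their values were seen, were FZD7 at 0.34 (0.19 without), EZH2 at -0.77 (-0.39 without), SOX15 at 0.42 (0.15 without), KLF3 at -0.38 (-0.21 without) and KLF16 at -0.22 (-0.27 without). Some gaps of the genes without overlap were very narrow. The lowest SHP2 array of FUT7 was at 6.1198 and its highest Ctrl shRNA array at 6.118. The highest SHP2 arrays of F2R and KLF16 were at 9.8396 and 8.4777, and their lowest Ctrl shRNA arrays at 9.8477 and 8.4793. The Ctrl shRNA arrays bore on both KLF12 and KLF16. These genes were at -0.10 and -0.063 without Ctrl shRNA replicate 1 and at -0.55 and -0.37 without Ctrl shRNA replicate 2.

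The retinoid list is given in more detail because ALDH1A1 and ALDH1A3 make retinoic acid. This emphasis was chosen after the values were seen. So was the naming of STRA6, CYP26A1, ALDH3A2, DHRS3, CYP26B1, RARRES1 and TGM2. CRABP2, which carries retinoic acid to its nuclear receptors, measured 7.27 and 7.31 in SHP2 sh1 cells, 6.28, 6.43 and 7.54 in SHP2 sh2 cells and 5.85 and 5.62 in Ctrl shRNA cells. All 5 SHP2 arrays were higher, with a mean log2 fold change of 1.29 (SE 0.36, unadjusted p 0.00952, adjusted p 0.758) and of 1.36 without the arrays that stood apart. RARB, a retinoic acid receptor whose own gene responds to retinoic acid, measured 5.70 and 5.94 in SHP2 sh1 cells, 5.32, 6.28 and 5.52 in SHP2 sh2 cells and 5.19 and 4.90 in Ctrl shRNA cells. It was also higher on all 5, at 0.71 (SE 0.29, unadjusted p 0.0467, adjusted p 0.758) and 0.51 without those arrays. STRA6, the cellular importer of retinol, measured 6.63 and 8.03 in SHP2 sh1 cells, 6.90, 7.72 and 6.77 in SHP2 sh2 cells and 6.60 and 6.46 in Ctrl shRNA cells. All 5 SHP2 arrays were above both Ctrl shRNA arrays, and the mean difference of 0.70 was 0.20 without the arrays that stood apart. CYP26A1, which breaks down retinoic acid and is among its best-known targets, measured 5.01 and 5.32 in SHP2 sh1 cells, 5.08, 5.75 and 5.00 in SHP2 sh2 cells and 5.02 and 4.94 in Ctrl shRNA cells. The groups overlapped, and the mean difference was 0.24, or 0.04 without those arrays. DHRS3, CYP26B1 and RARRES1, also of this list, overlapped as well, with mean differences of 0.08, 0.09 and 0.10. TGM2 overlapped too, with a mean difference of 0.28, or 1.22 without those arrays. ALDH3A2, an aldehyde dehydrogenase of fatty aldehydes, was lower on all 5, at -0.34, but at -0.21 without the arrays that stood apart, and at -0.17 without Ctrl shRNA replicate 2 and -0.52 without Ctrl shRNA replicate 1.

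The direct repeat of GNTCA with 6 free bases between the copies is an arrangement to which retinoic acid receptors are known to bind. It was found in 3 of 33 windows of the retinoid list and in 0.584% of all windows. The 3 were 1 of 4 RARB windows, 1 of 5 STRA6 windows and 1 of 2 CYP26A1 windows. The list was made to include genes that respond to retinoic acid, so these shares are no test. This repeat was 1 of the 13 motifs looked at. It is shown because RARB and STRA6 were already known to be higher on all 5 SHP2 arrays. CYP26A1, with the same repeat, overlapped between groups. Capitals mark the repeat on either strand in 60 bases of each window.
RARB (chr3:25428189-25428248, plus strand): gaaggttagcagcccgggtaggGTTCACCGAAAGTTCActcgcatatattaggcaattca
STRA6 (chr15:74212402-74212461, minus strand): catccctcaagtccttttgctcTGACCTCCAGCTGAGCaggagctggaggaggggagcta
CYP26A1 (chr10:93073781-93073840, plus strand): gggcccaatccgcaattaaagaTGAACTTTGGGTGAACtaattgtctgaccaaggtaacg
CRABP2, which had the widest difference of the list, held none of the 3 direct repeats in its window.

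**Figure D4:**
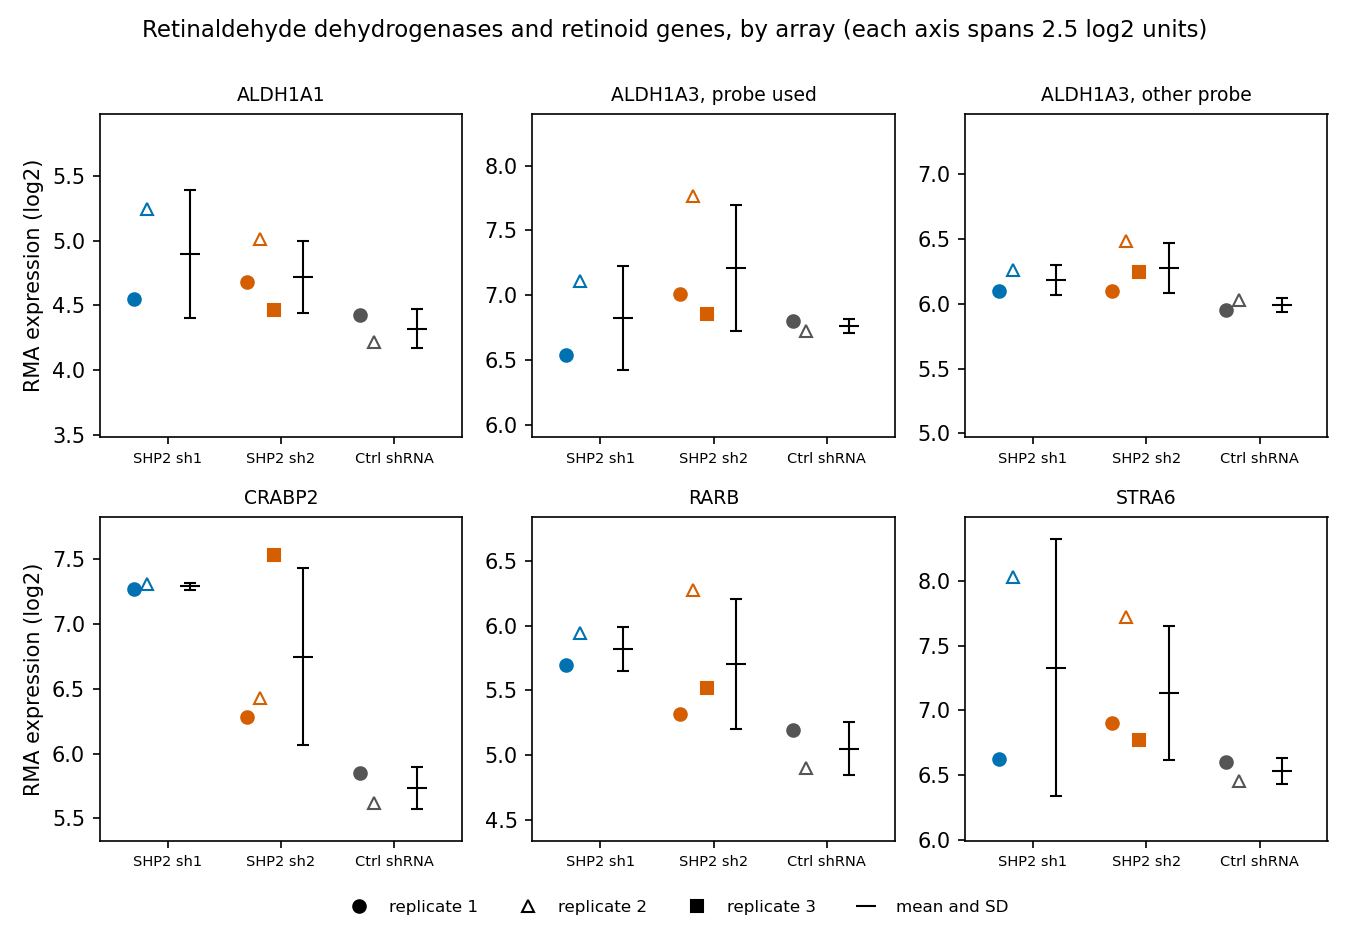
RMA expression (log2) on the 7 arrays for ALDH1A1, both ALDH1A3 probes and the retinoid genes CRABP2, RARB and STRA6. These 3 retinoid genes are those of their list that were higher on all 5 SHP2 arrays. SHP2 sh1, SHP2 sh2 and Ctrl shRNA run from left to right. Symbols are single arrays and bars the mean with its SD, and CRABP2 shows the widest gap, with SHP2 arrays from 6.28 to 7.54 and Ctrl shRNA arrays at 5.62 and 5.85.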

How the data were processed

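RNA of 7 SUM159 samples was measured on Human Gene 1.0 ST arrays. The authors made log2 values with oligo by the robust multi-array average, that is background correction, quantile normalization and summary over probes, and the deposited log2 values were analysed without change. A version of oligo was not given in the sources used here. The number of arrays limits the precision. Symbols came from the platform annotation, updated by gene ID with RefSeq of GRCh38.p14 (19429 of 19460 single-symbol probes found). The 1754 probes with several symbols and the 12083 not listed were left unnamed. For the 769 genes with several probes, the one of widest interquartile range was taken.

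limma 3.58.1 (R 4.3.3) fitted 3 group means over all 7 arrays with eBayes, and the 2 hairpins, their mean and their difference were tested two-sided, and p-values were adjusted by Benjamini-Hochberg over 18417 genes. Intervals are 95% confidence intervals of that fit. The 9 genes and all gene lists were chosen with earlier results of these data known. Named were the 9 genes, PTPN11, the 2 genes of smallest unadjusted p of each other list for the mean of both hairpins and, for the 3 members of widest range, the 3 genes nearest in their differences. Other genes are said to be chosen after their values were seen, as were CYP26A1, the 13 promoter motifs, the other ALDH1A3 probe and leaving out the 2 arrays that stood apart. The alternatives were the probe of highest mean, the average of a gene's probes, leaving out the dimmest 25% of genes, centring on the median, cyclic loess, a trend in eBayes, a fit of the compared arrays alone, weighted arrays, a replicate block and each array left out. A change of sign counted as such from a difference of 0.01, a minimum set after the fold changes were seen.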

Additional observations from a re-analysis of the deposited data

How the results depend on the processing

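None of the 9 genes passed the threshold under any alternative. The number of genes called was 0 in every comparison and setting but one, 30 with SHP2 sh2 under array weights, where the weights stopped before convergence, at values from 2.529e-06 to 40.83. The cause was not tested. The lowest weight belonged to SHP2 sh2 replicate 1 and the highest to both Ctrl shRNA arrays. The count of the 9 genes higher on all SHP2 arrays ran from 2 to 4 when single arrays were left out. The direction turned in 51 of 591 values of the 9 genes, and the cause was not tested. That count includes PROM1 with SHP2 sh1 under cyclic loess and under median centring. Its main value was 0 and so had no direction to turn. Differences are log2 values relative to Ctrl shRNA unless the hairpins are compared. Sizes also moved where the direction held. With cyclic loess the mean of both hairpins was 0.094 for SOX2 (main fit 0.27), 0.19 for KLF4 (0.34) and 0.15 for ALDH1A3 (0.25). It was 0.34 for ALDH1A1 (0.49) and 0.67 for CD24 (0.81), whereas SOX9 rose to 0.36 (0.20).

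Without the 2 arrays that stood apart, CD44 was 0.27 with SHP2 sh1, 0.032 with SHP2 sh2 and 0.15 for the mean, ALDH1A3 -0.22 with SHP2 sh1 and -0.026 for the mean, SOX2 -0.19 and -0.027, SOX9 -0.081 with SHP2 sh1, PROCR 0.066 for the mean, and PROM1 -0.025 with SHP2 sh2 and -0.0126 for the mean. CTNNB1 was 0.10 for the mean. In SHP2 sh2 relative to SHP2 sh1, ALDH1A1 was 0.025 and PROM1 -0.025. Cyclic loess gave 0.15 with SHP2 sh1, 0.057 with SHP2 sh2 and 0.10 for the mean for CD44, -0.024 with SHP2 sh1 for ALDH1A3, 0.041 for the mean for PROCR, -0.085 with SHP2 sh1 and -0.033 for the mean for PROM1, and -0.0102 between hairpins for KLF4. Array weights gave 0.002541 with SHP2 sh2 for CD44 and 0.11 for the mean for PROCR, and between hairpins 0.18 for CD44, -0.29 for CD24, -0.06995 for SOX9 and -0.092 for KLF4. Median centring gave 0.014 with SHP2 sh1 for PROM1 and -0.022 between hairpins for SOX9, and it added KLF4 to the genes without overlap, which made 3.

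With single arrays left out, the range with SHP2 sh1 was -0.63 to 0.27 for CD44, -0.22 to 0.34 for ALDH1A3, -0.19 to 0.56 for SOX2 and -0.081 to 0.48 for SOX9. With SHP2 sh2 it was -0.63 to 0.032 for CD44, -0.074 to 0.25 for PROCR and -0.025 to 0.28 for PROM1, and for the mean -0.080 to 0.081 for PROCR and -0.0126 to 0.14 for PROM1. Between hairpins it was -0.65 to 0.25 for CD44, -0.53 to 0.17 for ALDH1A1, -0.025 to 0.28 for PROM1, -0.20 to 0.55 for SOX2, -0.28 to 0.29 for SOX9 and -0.061 to 0.19 for KLF4.

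The replicate numbers were not taken to pair the samples, since the deviations of arrays with the same number correlated at -0.06 to 0.02 between SHP2 and Ctrl shRNA cells. In a group of 2 arrays the 2 deviations mirror each other, so this is weak evidence against pairing. Between the 2 hairpins the deviations correlated at 0.615 and 0.846, and the main fit still treated those arrays as unpaired. With the replicate block 0 genes were called, and PROCR was -0.074 with SHP2 sh2. Precision is limited by groups of 2 and 3 arrays and, for CD24, ALDH1A1, PROM1 and SOX2, by signal in the dimmest 25% of genes.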
